A study of Mus musculus with 24 samples.

Results

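De novo fatty acid synthesis builds fatty acids from acetyl-CoA, and 10 genes of this pathway were followed on 24 single-colour expression arrays of mouse RNA: Slc25a1, Acly, Me1, Acaca, Fasn, Olah, Elovl6, Fads1, Thrsp and Srebf1. A gene was represented by a probe set whose only symbol in the platform annotation was that of the gene, and each of the 10 had exactly 1 such probe set. They are 10 of 22180 genes with a single symbol, and all 10 were among the 15234 that lay above the array median on at least 3 arrays and were tested. The series concerns Brca1, a tumour suppressor of homologous recombination repair, and compares mutant with wild-type animals whose strain is labelled FVB/129SVEV/Black Swiss in both. There were 8 groups of 3 arrays, mutant V, dp12, dp18 and Lac10 followed by wild-type V, dp12, dp18 and Lac10, where the codes are read as virgin, day of pregnancy and day of lactation. The design text gives the numbers 12, 18 and 10 of these codes as months, so the times are not settled, and the labels name neither the tissue, the allele, the promoter of any Cre nor the age. The titles carry a body weight for 22 of the 24 arrays and a separate number for each mutant array, which point to different animals, although no label says so outright. Some wild-type titles also carry a colour, whose meaning is not stated. Lac10 replicate 1 is labelled 28 g and white, and Lac10 replicates 2 and 3 are labelled 39 g and brown. In wild-type dp18, replicate 2 is labelled white and replicate 3 brown. In the main fit, the spread behind a p-value is that between arrays of the same group, pooled for each gene over all 8 groups. A p-value at 1 stage therefore also draws on groups that varied more or less.

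Fatty acid synthesis starts in the mitochondrion, where citrate is made and then carried to the cytosol, cleaved to acetyl-CoA, carboxylated to malonyl-CoA and polymerised by fatty acid synthase with electrons from NADPH. In most tissues the synthase releases palmitate, while in the lactating mammary gland of rodents a separate thioesterase ends the chain early and gives the medium-chain fatty acids of milk. The pathway is known to be switched on in mammary alveolar cells around birth, largely through the transcription factor SREBP-1, and it also runs in liver and adipose tissue.

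Promoters of 4 of the 10 genes are shown as examples, and they differ in the motifs they hold. The 250 bases before the annotated start are given 5′ to 3′ on the gene's strand, from RefSeq on build GRCm38.p6, with motif matches in capitals. The Fasn window lies at chr11:120824548-120824797 on the minus strand, the Thrsp window at chr7:97417551-97417800 on the minus strand, the Slc25a1 window at chr16:17928220-17928469 on the minus strand and the Olah window at chr2:3366570-3366819 on the minus strand.
Fasn: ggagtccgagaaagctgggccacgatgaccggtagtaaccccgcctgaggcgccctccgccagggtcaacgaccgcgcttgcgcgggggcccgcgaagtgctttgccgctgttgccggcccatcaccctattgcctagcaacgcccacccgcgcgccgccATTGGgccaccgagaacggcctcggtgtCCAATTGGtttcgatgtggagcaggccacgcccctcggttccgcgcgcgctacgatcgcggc
Thrsp: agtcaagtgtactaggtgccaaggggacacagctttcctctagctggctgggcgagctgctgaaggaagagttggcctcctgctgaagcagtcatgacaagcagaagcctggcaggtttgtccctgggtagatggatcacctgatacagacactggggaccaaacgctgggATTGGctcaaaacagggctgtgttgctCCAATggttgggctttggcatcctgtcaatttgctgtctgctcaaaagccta
Slc25a1: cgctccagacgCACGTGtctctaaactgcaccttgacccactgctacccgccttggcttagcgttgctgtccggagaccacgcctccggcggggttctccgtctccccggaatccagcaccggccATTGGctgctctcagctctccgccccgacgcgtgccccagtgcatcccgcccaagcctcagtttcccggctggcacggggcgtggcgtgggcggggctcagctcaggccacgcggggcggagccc
Olah: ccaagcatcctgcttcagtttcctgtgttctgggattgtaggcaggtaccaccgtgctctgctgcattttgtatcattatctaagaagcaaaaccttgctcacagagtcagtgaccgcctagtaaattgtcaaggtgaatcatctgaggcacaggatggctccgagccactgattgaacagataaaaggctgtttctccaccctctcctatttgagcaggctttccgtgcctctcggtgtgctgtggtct
Capitals mark CCAAT boxes, read as CCAAT or as ATTGG on the other strand, and in Slc25a1 also a palindromic E-box, CACGTG.

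The Fasn window held 3 CCAAT boxes, 90, 62 and 59 bases before the start, of which the last 2 lie on opposite strands and overlap. Thrsp held 2 CCAAT boxes, 79 and 52 bases before its start. Slc25a1 held 1 CCAAT box 125 bases before its start and 1 E-box 239 bases before it. The Olah window held none of the 4 motifs searched on both strands. The other motifs were TCACNCCAC, a sterol regulatory element, and TTCNNNGAA, a Stat5 site. The RefSeq table held 12 windows for 9 of the 10 genes, with 2 for Me1, 3 for Srebf1 and none for Fads1. A CCAAT box was found in 6 of the 12 windows, belonging to 5 genes, against 33.8% of all 32851 windows. The E-box was found in 1 of the 12, against 6.02% of all windows. The sterol regulatory element and the Stat5 site were in 0 of the 12, against 1.05% and 7.02% of all windows. A match is only a run of letters, and the alternative starts of Srebf1, which give SREBP-1a and SREBP-1c, cannot be separated by the 1 probe set measured.

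Values below are on the log2 scale of RMA, the robust multi-array average, in which a difference of 1 is a doubling, and levels are compared only within a probe set. Values of the 3 arrays of a group stand in replicate order. The arrays were uneven. Over all probe sets, each array was correlated with the other 23, and the median of these correlations was 0.80 to 0.86 for 3 arrays, mutant Lac10 replicate 2, mutant dp18 replicate 1 and wild-type dp18 replicate 1, and 0.91 to 0.97 for the other 21. The SD of the values within an array was 1.65 to 1.71 in those 3 and 1.77 to 1.99 in the others. With every gene centred over the arrays, 16 of the 24 arrays correlated best with an array of their own stage. The array labelled wild-type Lac10 replicate 1 was nearest to mutant dp12 replicate 1 (r = 0.67) and reached 0.24 at most with another Lac10 array. The array labelled mutant dp18 replicate 2 was nearest to mutant Lac10 replicate 3 (r = 0.67) and reached 0.16 at most with another dp18 array. Mutant dp18 replicate 3 was nearest to wild-type Lac10 replicate 1 (r = 0.64). Wild-type V replicate 1 was nearest to wild-type dp18 replicate 1 (r = 0.63), and wild-type dp18 replicate 3 to wild-type dp12 replicate 3 (r = 0.53). Each of the 3 mutant Lac10 arrays was also nearest to an array of another stage, replicate 1 to wild-type V replicate 1 (r = 0.52), replicate 2 to mutant dp18 replicate 1 (r = 0.77) and replicate 3 to mutant dp18 replicate 2. Results at Lac10 are therefore also given without single arrays. Milk protein transcripts, by which a mammary source can be recognised, were bright on every array as a list, with a mean over 13 genes of 8.38 to 9.91 in mutant virgins and 8.29 to 8.99 in wild-type virgins. Single genes of the list were not all bright in virgins. On mutant virgin replicate 2, Csn2 read 10.17, while Wap read 4.88, below that array's median of 5.39.

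Across the stages, wild-type arrays had their highest mean at Lac10 for all 10 genes. Mutant arrays had it at dp12 for 9 genes and at dp18 for Slc25a1, and for Srebf1 the mutant Lac10 mean was the lowest of the 4. The mean over the 10 genes shows the course on each array. It was 7.72, 7.43 and 7.79 in mutant virgins, 9.78, 9.86 and 9.44 at dp12, 9.25, 9.48 and 9.59 at dp18 and 8.46, 7.76 and 10.35 at Lac10. In wild type it was 7.60, 7.27 and 7.50 in virgins, 9.43, 9.70 and 8.92 at dp12, 9.16, 9.56 and 9.17 at dp18 and 9.78, 10.80 and 11.05 at Lac10. The ranges of the 2 genotypes overlapped at V, dp12 and dp18, and at Lac10 mutant replicates 1 and 2 lay below every wild-type array.

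**Figure D1:**
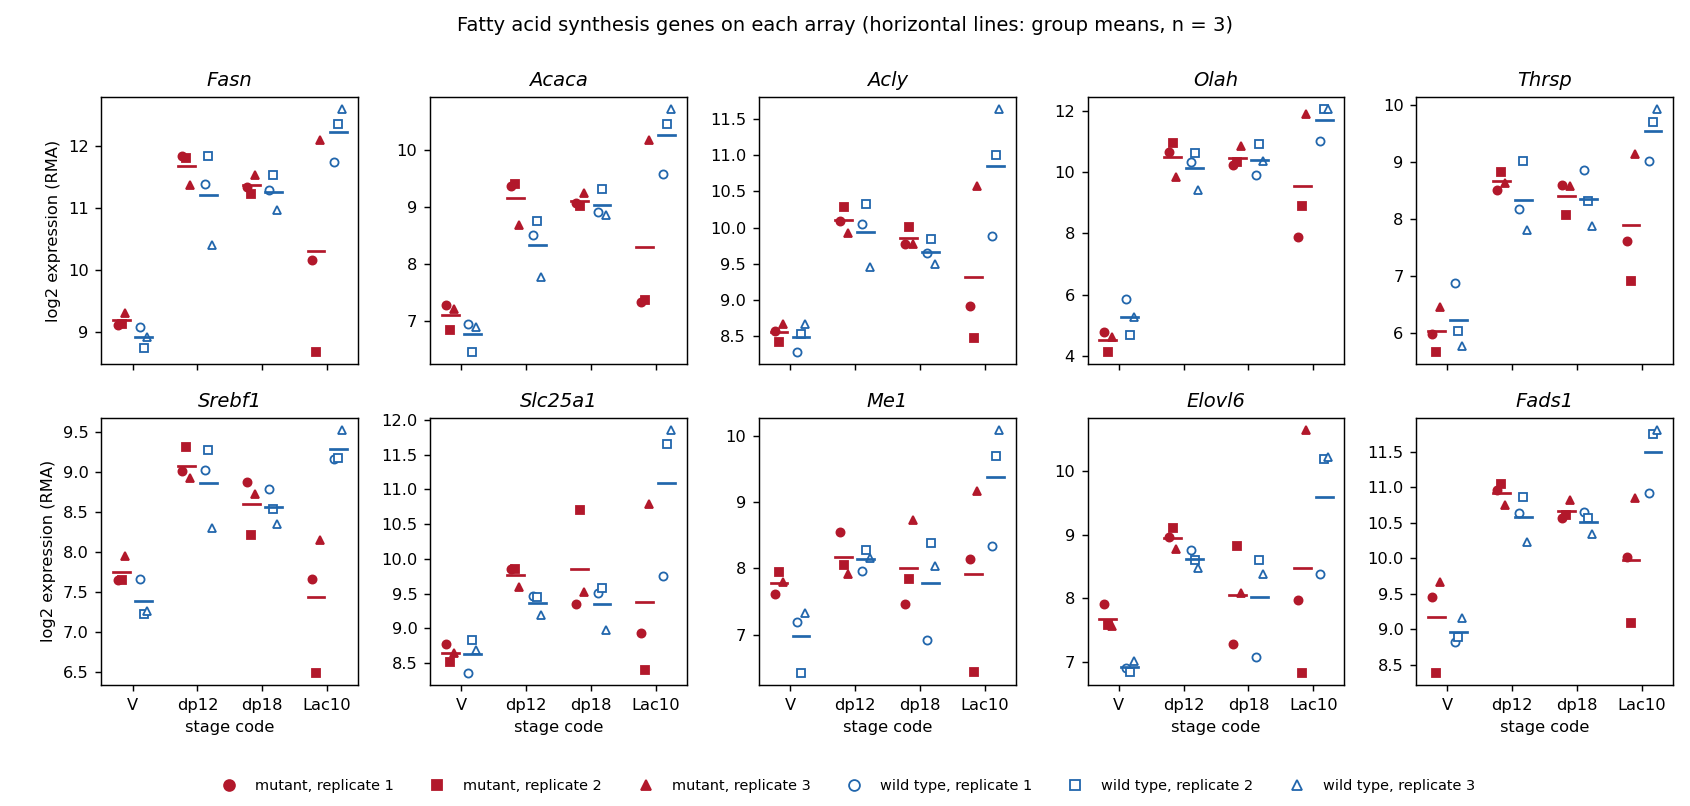
Each panel plots the log2 expression of 1 gene (y axis) on every array against the stage code (x axis), with mutant arrays as filled red symbols left of wild-type arrays as open blue symbols, symbol shapes for replicates 1 to 3 and lines for the means of the 3 arrays. At V the groups lie lowest for most genes, and at Lac10 the mutant triangle (replicate 3) lies apart from the other 2 mutant arrays.

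The first 3 genes supply carbon and reducing power. Slc25a1 encodes the mitochondrial citrate carrier. It read 8.77, 8.51 and 8.65 in mutant virgins, 9.86, 9.86 and 9.60 at dp12, 9.36, 10.70 and 9.53 at dp18 and 8.93, 8.40 and 10.79 at Lac10. In wild type it read 8.36, 8.83 and 8.70 in virgins, 9.47, 9.45 and 9.20 at dp12, 9.51, 9.58 and 8.98 at dp18 and 9.76, 11.65 and 11.86 at Lac10. The mutant dp18 mean, the highest of the mutant means, was set by replicate 2, whose nearest array was mutant Lac10 replicate 3. Acly encodes ATP-citrate lyase, which releases acetyl-CoA from citrate. Its values were 8.57, 8.43 and 8.68 in mutant virgins, 10.09, 10.29 and 9.93 at dp12, 9.77, 10.00 and 9.78 at dp18 and 8.92, 8.47 and 10.57 at Lac10. Wild-type values were 8.29, 8.54 and 8.68 in virgins, 10.05, 10.32 and 9.45 at dp12, 9.65, 9.84 and 9.50 at dp18 and 9.89, 11.00 and 11.63 at Lac10. At dp12 all arrays of both genotypes lay above all virgin arrays. Me1 encodes malic enzyme 1, a cytosolic source of NADPH. Mutant arrays had 7.62, 7.94 and 7.79 in virgins, 8.54, 8.05 and 7.92 at dp12, 7.47, 7.83 and 8.73 at dp18 and 8.14, 6.44 and 9.17 at Lac10. Wild-type arrays had 7.20, 6.42 and 7.33 in virgins, 7.96, 8.28 and 8.16 at dp12, 6.92, 8.39 and 8.04 at dp18 and 8.34, 9.70 and 10.10 at Lac10. Me1 was the flattest of the 10 in mutants, where its 4 stages overlapped.

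Acaca and Fasn encode the committed steps. Acaca encodes acetyl-CoA carboxylase 1, which makes malonyl-CoA. It stood at 7.28, 6.85 and 7.22 in mutant virgins, 9.37, 9.41 and 8.70 at dp12, 9.07, 9.02 and 9.26 at dp18 and 7.35, 7.37 and 10.18 at Lac10. In wild type it stood at 6.95, 6.46 and 6.91 in virgins, 8.51, 8.75 and 7.77 at dp12, 8.91, 9.32 and 8.87 at dp18 and 9.59, 10.47 and 10.73 at Lac10. On mutant Lac10 replicates 1 and 2 it was within 0.1 of the highest virgin array, and on replicate 3 it was in the wild-type range. Fasn encodes fatty acid synthase itself. Mutant values were 9.12, 9.13 and 9.31 in virgins, 11.85, 11.81 and 11.37 at dp12, 11.34, 11.23 and 11.53 at dp18 and 10.16, 8.67 and 12.10 at Lac10. Wild-type values were 9.09, 8.74 and 8.92 in virgins, 11.39, 11.85 and 10.40 at dp12, 11.29, 11.54 and 10.98 at dp18 and 11.74, 12.35 and 12.61 at Lac10. Mutant Lac10 replicate 2 lay below all 3 mutant virgin arrays for Fasn.

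Olah encodes thioesterase II, the enzyme that ends synthesis at medium chain lengths, and it spanned the widest range of the 10. In mutants it was 4.79, 4.13 and 4.60 in virgins, 10.64, 10.93 and 9.83 at dp12, 10.21, 10.33 and 10.84 at dp18 and 7.87, 8.89 and 11.89 at Lac10. In wild type it was 5.86, 4.69 and 5.26 in virgins, 10.33, 10.61 and 9.42 at dp12, 9.90, 10.92 and 10.35 at dp18 and 11.02, 12.04 and 12.05 at Lac10. Virgin values of both genotypes were near or below the array medians of 5.31 to 5.62, and every later array lay above all of them.

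Elovl6 and Fads1 act on finished chains. Elovl6 encodes the elongase that extends palmitate. Mutant arrays read 7.91, 7.58 and 7.57 in virgins, 8.96, 9.11 and 8.78 at dp12, 7.28, 8.82 and 8.08 at dp18 and 7.98, 6.83 and 10.65 at Lac10. Wild-type arrays read 6.91, 6.85 and 7.02 in virgins, 8.75, 8.61 and 8.48 at dp12, 7.09, 8.61 and 8.38 at dp18 and 8.39, 10.19 and 10.22 at Lac10. The lowest dp18 array of each genotype was replicate 1, which in both is an array of low correlation with the rest. Fads1 encodes the delta-5 desaturase of polyunsaturated fatty acids. It measured 9.46, 8.39 and 9.67 in mutant virgins, 10.96, 11.04 and 10.76 at dp12, 10.56, 10.60 and 10.82 at dp18 and 10.01, 9.08 and 10.85 at Lac10. In wild type it measured 8.83, 8.89 and 9.16 in virgins, 10.64, 10.87 and 10.23 at dp12, 10.65, 10.56 and 10.35 at dp18 and 10.93, 11.75 and 11.81 at Lac10. All 3 mutant Lac10 arrays lay below all 3 wild-type Lac10 arrays for this gene.

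Thrsp and Srebf1 belong to the control of the pathway. Thrsp encodes Spot 14, a thyroid hormone responsive protein that promotes lipogenesis in the mammary gland. Its mutant values were 5.98, 5.66 and 6.44 in virgins, 8.51, 8.83 and 8.63 at dp12, 8.59, 8.06 and 8.57 at dp18 and 7.61, 6.92 and 9.14 at Lac10. Its wild-type values were 6.87, 6.03 and 5.77 in virgins, 8.18, 9.02 and 7.81 at dp12, 8.87, 8.32 and 7.87 at dp18 and 9.03, 9.70 and 9.93 at Lac10. At every later stage both genotypes lay above their own virgin arrays. Srebf1 encodes SREBP-1, the transcription factor that activates most of the other genes. In mutants Srebf1 was 7.66, 7.65 and 7.95 in virgins, 9.01, 9.31 and 8.92 at dp12, 8.88, 8.21 and 8.73 at dp18 and 7.66, 6.49 and 8.15 at Lac10. In wild type Srebf1 was 7.66, 7.23 and 7.26 in virgins, 9.03, 9.28 and 8.29 at dp12, 8.78, 8.54 and 8.35 at dp18 and 9.16, 9.17 and 9.53 at Lac10. Srebf1 was the 1 gene whose mutant Lac10 arrays all lay below every mutant dp18 array, and its highest mutant Lac10 array, at 8.15, lay well under the lowest wild-type one, at 9.16.

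Between virgin and dp12, most of the synthesis genes rose in both genotypes, with the largest difference in Olah. In mutants 7 of 10 were higher at an adjusted p under 0.05 in limma, against 3.02% of all genes tested that were higher. They were Olah by 5.96 (SE 0.65, adjusted p = 6.33e-05), Thrsp by 2.63 (SE 0.44, adjusted p = 0.00121), Fasn by 2.49 (SE 0.52, adjusted p = 0.00718), Acaca by 2.04, Fads1 by 1.75, Acly by 1.54 and Srebf1 by 1.33. On a linear scale the Olah difference was 62.3-fold and the Fasn difference 5.61-fold. Olah folds against virgins are best read as lower bounds, since its virgin values were near or below the array medians in both genotypes. The remaining differences were 1.27 for Elovl6, 1.13 for Slc25a1 and 0.39 for Me1, with adjusted p of 0.377, 0.281 and 0.883. The median over the 10 was 1.65, against 0.009 over all genes tested. Groups did not overlap for 9 of the 10, against 22.1% of all genes, and Me1 was the exception.

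In wild type 6 of 10 rose in the same step, against 5.91% of all genes. They were Olah by 4.85 (28.8-fold, again read as a lower bound), Fasn by 2.29, Thrsp by 2.11, Fads1 by 1.62, Srebf1 by 1.48 and Acly by 1.44, with adjusted p of 0.00447 to 0.0437. The others differed by 1.69 for Elovl6, 1.57 for Acaca, 1.16 for Me1 and 0.74 for Slc25a1, and the adjusted p of Acaca was 0.0616. Their median was 1.59, against 0.28 over all genes. The dp12 arrays lay above the virgin arrays for all 10, where 41.7% of all genes did so. Leaving out 1 wild-type array gave a count of 0 (virgin replicate 2) or 1 (virgin replicate 3, dp12 replicate 1 or dp12 replicate 2), where 0%, and 0.0197% to 0.932%, of all genes rose. In mutants the count was 3 without mutant virgin replicate 2 (1.08% of all genes) and 4 without mutant dp12 replicate 1 or 2 (1.96% and 1.27%). The difference between genotypes in this step passed for 0 of 10 in limma, against 0.00656% of all genes, and 0 had an unadjusted p under 0.05, against 5.95% of all genes, with differences of -0.77 to 1.11, mutant minus wild type.

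From dp12 to dp18 none of the 10 passed in either genotype, against 0% of all genes in mutants and 0% in wild type. None had an unadjusted p under 0.05, where 13.7% of all genes did so in mutants and 9.69% in wild type. Differences, dp18 minus dp12, were -0.89 to 0.09 in mutants and -0.59 to 0.69 in wild type. The difference between genotypes in this step passed for 0 of 10, against 0% of all genes, and 0 had an unadjusted p under 0.05, against 0.414%.

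At Lac10 against virgins, all 10 genes rose in wild type, and only Olah and Thrsp passed in mutants. In wild type the 10 of 10 compares with 6.01% of all genes that rose in limma. Differences were 6.43 for Olah (SE 0.65, adjusted p = 2.9e-05, 86.5-fold, again read as a lower bound), 3.49 for Acaca (SE 0.50, adjusted p = 0.000401, 11.2-fold), 3.33 for Thrsp, 3.32 for Fasn, 2.67 for Elovl6, 2.53 for Fads1, 2.46 for Slc25a1, 2.40 for Me1, 2.34 for Acly and 1.90 for Srebf1. The median was 2.60, against 0.15 over all genes, and for all 10 the Lac10 arrays lay above the virgin arrays, against 26.4% of all genes. Without 1 array the count was 7 to 10.

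In mutants 2 of 10 rose, against 0.282% of all genes, Olah higher by 5.04 (SE 0.65, adjusted p = 0.000273) and Thrsp by 1.86 (SE 0.44, adjusted p = 0.0314). Differences of the other 8 were -0.32 for Srebf1, 0.13 for Me1, 0.73 for Slc25a1, 0.76 for Acly, 0.80 for Elovl6, 0.81 for Fads1, 1.12 for Fasn and 1.18 for Acaca, with adjusted p of 0.165 to 0.897. The 3 mutant Lac10 arrays lay above the mutant virgin arrays for 3 genes, Olah, Thrsp and Acaca, against 4.04% of all genes. The median over the 10 was 0.80, against -0.18 over all genes, and it was 0.19 without mutant Lac10 replicate 3, where Olah alone passed, and 1.44 without replicate 2, where 3 passed. The count was also 1 without any single mutant virgin array.

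**Figure D2:**
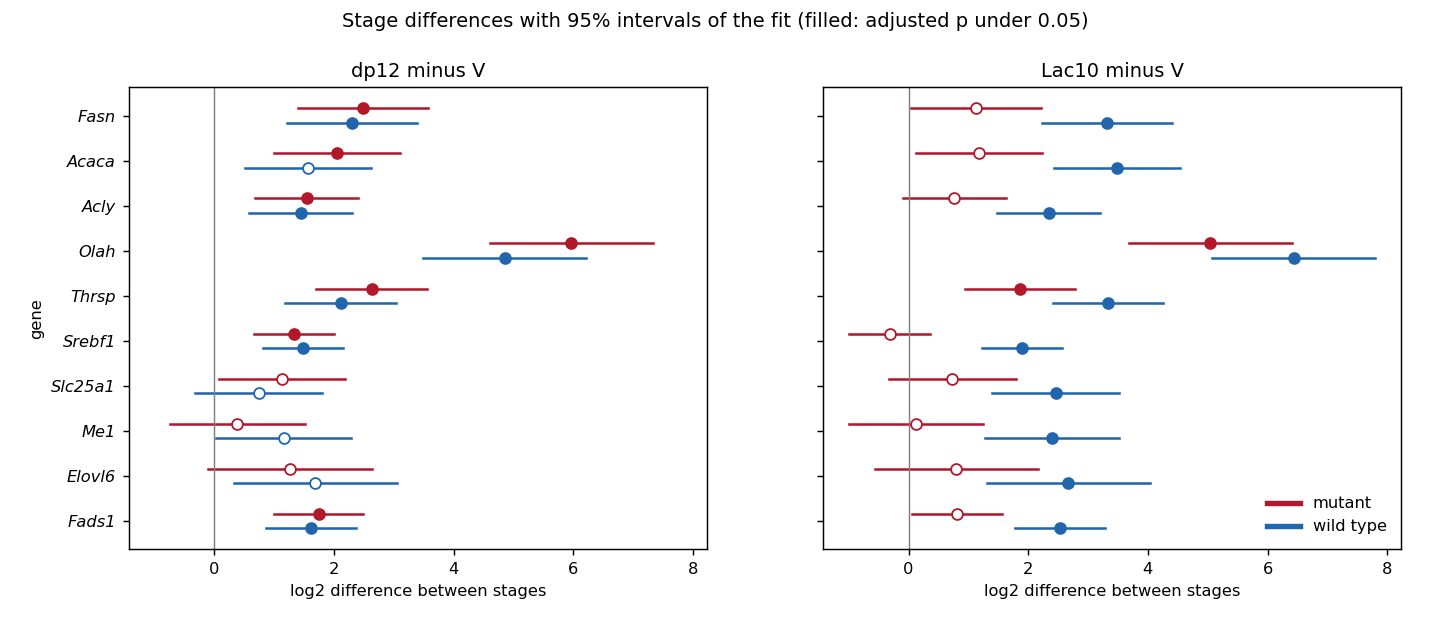
Points are log2 differences of the fit for the 10 genes (y axis), dp12 minus V in the left panel and Lac10 minus V in the right, mutants in red above wild type in blue, with bars for the 95% interval and filled points for an adjusted p under 0.05. At dp12 the genotypes' intervals overlap for every gene, and at Lac10 all 10 wild-type points are filled, while Olah and Thrsp are the 2 filled mutant points.

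The group means of the last step, from dp18 to Lac10, ran upward in wild type and mostly downward in mutants without passing the test. In wild type all 10 differences, Lac10 minus dp18, were positive, from 0.73 for Srebf1 to 1.73 for Slc25a1 with a median of 1.21 against 0.09 over all genes. None passed in limma, against 0% of all genes, and 8 were higher at an unadjusted p under 0.05, against 6.34% of all genes. Without wild-type Lac10 replicate 1, 1 passed, where 0.873% of all genes rose. Lac10 arrays lay above dp18 arrays for 8 genes, all but Me1 and Elovl6, against 9.83% of all genes. In mutants 9 of 10 differences were negative, from -1.17 for Srebf1 to 0.43 for Elovl6, with 0 passing against 0% of all genes. Of the 10, 1, Srebf1, was lower at an unadjusted p under 0.05, against 2.08% of all genes. Mutant Lac10 arrays lay below all mutant dp18 arrays for 1 gene, Srebf1, and above them for 0, against 1.46% and 1.02% of all genes. The mutant arrays were split, and Lac10 replicate 3 lay above every mutant dp18 array for 9 genes. The difference between genotypes in this step was negative for all 10, with a median of -1.81 (-0.21 over all genes). It passed for 0 (0% of all genes), and 9 were negative at an unadjusted p under 0.05, against 5.36% of all genes. Without mutant Lac10 replicate 3, 6 passed, where 0.276% of all genes did so in that direction.

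At Lac10 itself, mutant means were lower than wild-type means for all 10 genes, and Srebf1 passed the test. The background is 0.236% of all genes tested, that is 36 genes, all of them lower in mutants. Srebf1 averaged 7.44 ± 0.85 in mutants and 9.29 ± 0.21 in wild type (SD, n = 3 each), a difference of -1.85 (SE 0.32, adjusted p = 0.0299 in limma). The other 9 differed by -2.15 for Olah, -1.96 for Acaca, -1.92 for Fasn, -1.71 for Slc25a1, -1.66 for Thrsp, -1.52 for Acly, -1.51 for Fads1, -1.47 for Me1 and -1.11 for Elovl6, with adjusted p of 0.0695 to 0.369. All but Elovl6 had an unadjusted p under 0.05, where 14.2% of all genes were lower at that p. The median of the 10 was -1.69, against -0.19 over all genes, of which 90% lay between -1.01 and 0.71. Mutant and wild-type arrays did not overlap for 2 genes, Srebf1 and Fads1, against 12.4% of all genes that lay lower without overlap.

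**Figure D3:**
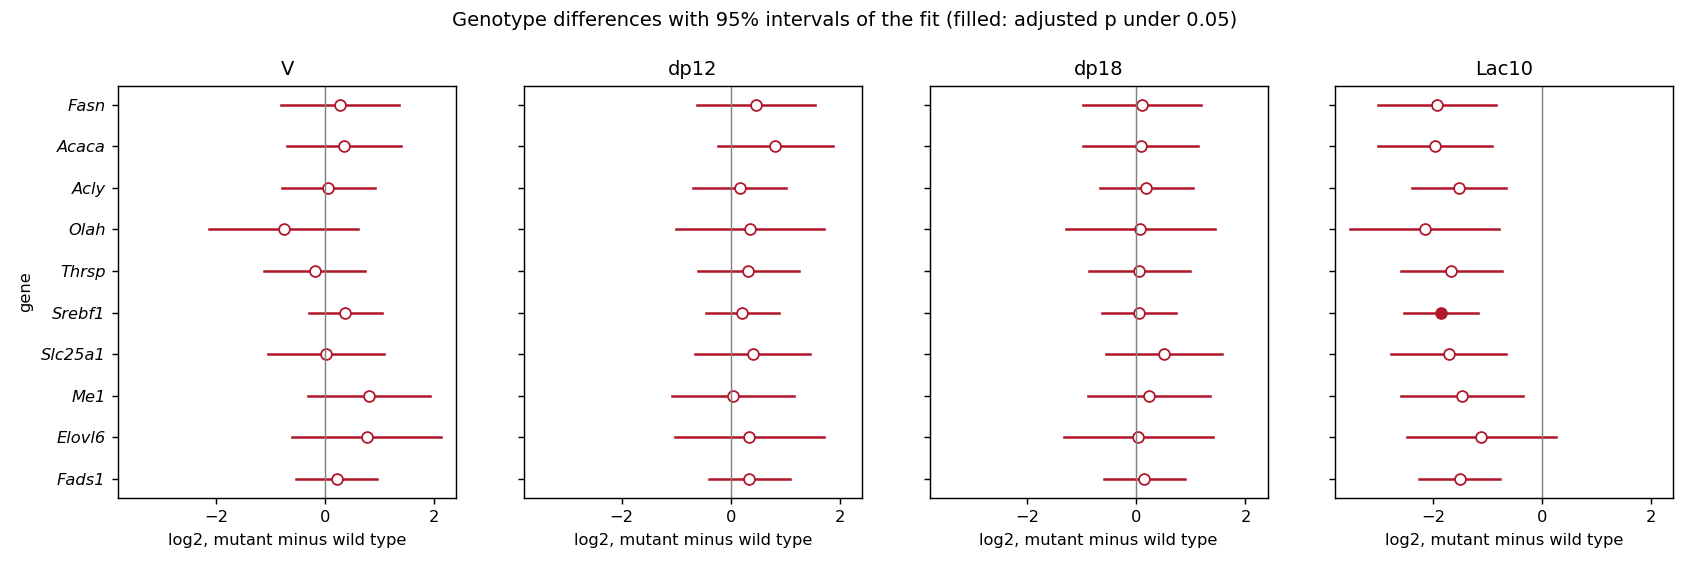
Points are log2 differences of the fit, mutant minus wild type, for the 10 genes (y axis) in a panel per stage, with bars for the 95% interval and a filled point for an adjusted p under 0.05. At V, dp12 and dp18 every interval includes 0, and at Lac10 every point lies below 0 and the point of Srebf1 is filled.

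The 3 mutant Lac10 arrays were not alike. Replicates 1 and 2 lay below all 3 wild-type Lac10 arrays for 10 of 10 genes, with median differences from the wild-type mean of -1.93 and -2.78. Replicate 3 lay below them for 2 genes, again Srebf1 and Fads1, with a median difference of -0.24, and it exceeded every mutant dp18 array for 9 of 10. For single arrays these positions were not counted over all genes. Of 16 housekeeping genes, 8, 15 and 6 lay below all wild-type Lac10 arrays on mutant replicates 1, 2 and 3, and 4, 0 and 2 above. On replicate 2, an array of low correlation, lying below was therefore not particular to the synthesis genes. The SD of the 3 mutant Lac10 arrays had a median of 1.32 over the 10 genes (0.85 to 2.09), against 0.60 in wild type at Lac10 and 0.18 to 0.48 in the other 6 groups. Over all genes that median SD was 0.51 in mutants and 0.23 in wild type at Lac10.

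**Figure D4:**
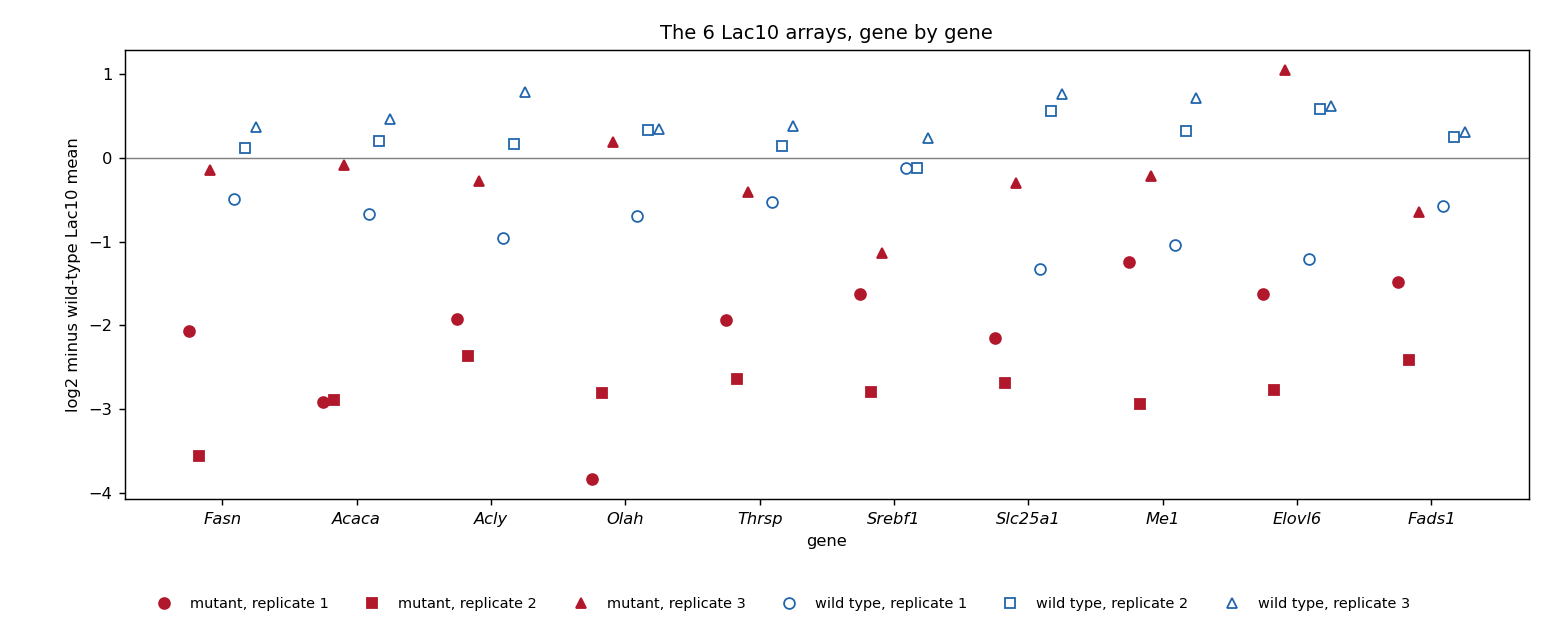
For each gene (x axis) the y axis gives the log2 value of each Lac10 array minus the mean of the wild-type Lac10 arrays, with mutants as filled red symbols left of wild type as open blue symbols and shapes for replicates 1 to 3. Mutant replicates 1 and 2 lie between -3.83 and -1.24, and mutant replicate 3 lies between -1.13 and 1.05.

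The number of genes that passed at Lac10 depended on single arrays. Without mutant Lac10 replicate 3, 10 of 10 passed as lower in mutants, with a median of -2.25, and 7.42% of all genes did so. Without wild-type Lac10 replicate 1 the count was 6 (1.90% of all genes), and without this array and mutant dp18 replicate 2 together it was 5 (1.71%). Without mutant Lac10 replicate 2, 0 passed, with a median of -1.14, and 0 passed without wild-type Lac10 replicate 2 or 3 or without the 3 arrays of low correlation. In each of these 4 fits 0 of all genes passed. All 10 differences stayed negative in each of these fits. Srebf1 passed in 28 of 36 alternative fits, with differences of -2.21 to -1.38 and adjusted p of 0.00102 to 0.514. Its call was also lost without mutant virgin replicate 1 or mutant dp12 replicate 1, at adjusted p of 0.0507 and 0.0517. In a fit of the compared groups alone, which borrows no spread from other stages, its adjusted p in limma was 0.514.

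Other gene lists moved with the same arrays, and their part in these results was not tested. The labels do not name the source of the RNA. If it was a whole tissue, fewer cells of a type and less RNA per cell cannot be told apart. The mean of 15 luminal epithelial genes was 9.13, 6.30 and 7.40 on mutant Lac10 replicates 1, 2 and 3, against 9.11, 8.10 and 8.29 on the wild-type Lac10 arrays. The mean of 17 white adipocyte genes was 7.19, 8.07 and 9.59 in mutants, against 7.70, 8.57 and 8.37 in wild type. Single genes of this list were not all bright. On the wild-type Lac10 arrays Adipoq read 4.4, 5.0 and 4.5, below the array medians, and Fabp4 12.1, 12.4 and 12.0. On the mutant Lac10 arrays Adipoq read 4.7, 5.7 and 7.6 and Fabp4 11.6, 12.8 and 12.5. The mean of 13 milk protein genes was 10.77, 11.14 and 11.91 in mutants, against 11.12, 12.13 and 12.11 in wild type. Mutant replicate 1, low for the synthesis genes, had a luminal epithelial mean just above the highest wild-type array, with 7 of 15 above and 2 below all wild-type Lac10 arrays, while 12 of 17 adipocyte and 9 of 13 milk protein genes lay below all of them. Mutant replicate 2, also low for the synthesis genes, had 14 of 15 luminal genes, 7 of 13 milk protein genes and 15 of 16 housekeeping genes below all wild-type arrays. Of its adipocyte genes, 9 of 17 lay above all wild-type arrays and 4 below them. Mutant replicate 3, high for the synthesis genes, had 13 of 17 adipocyte genes above all wild-type arrays and 13 of 15 luminal genes below them, and its adipocyte mean was the highest of the 24 arrays. Lists of other cell types moved as well. Of 10 endothelial genes, 10, 1 and 1 lay below all wild-type arrays on mutant replicates 1, 2 and 3, and 0, 4 and 8 above. Of 11 genes of dividing cells, 1, 10 and 10 lay below and 0 above. Of 6 skeletal muscle genes, 0, 2 and 0 lay below and 5, 4 and 5 above. These counts were not set against all genes. The pathway also runs in adipose tissue, and Fasn, Acly, Me1, Elovl6, Thrsp and Srebf1 are only examples of its genes known to be used by adipocytes.

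**Figure D5:**
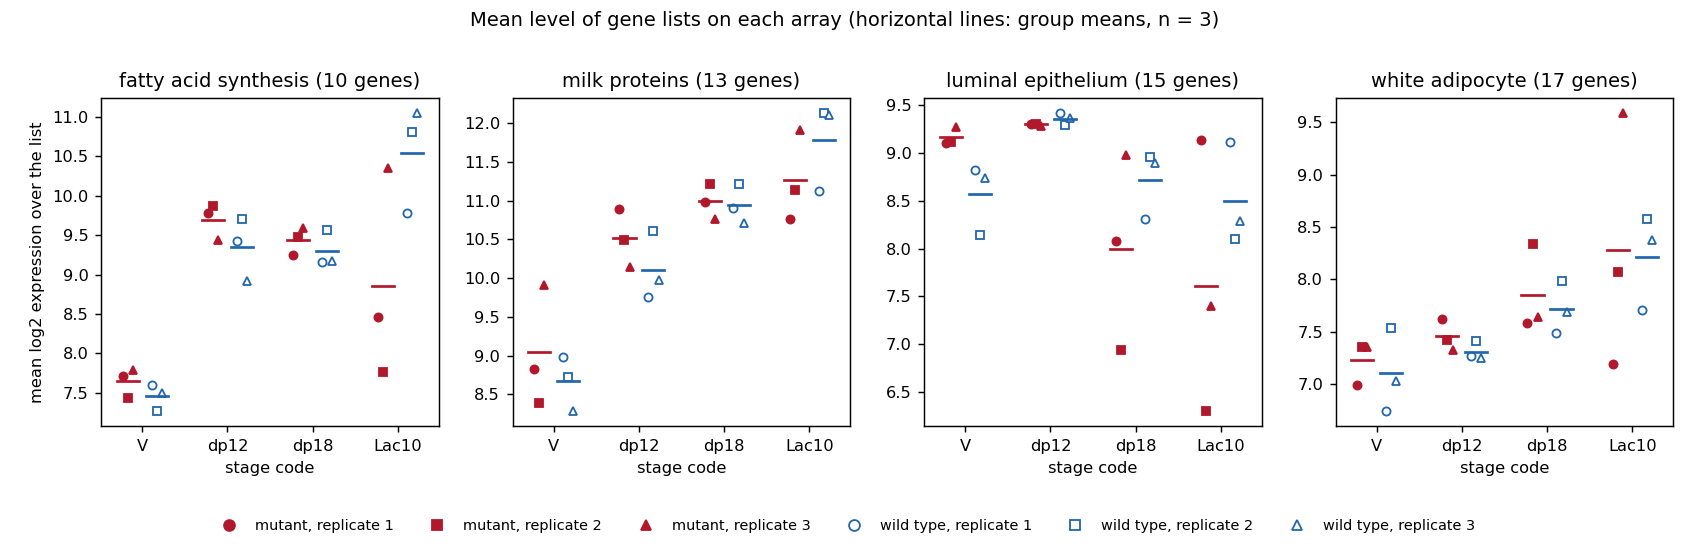
Each panel gives the mean log2 expression of a gene list (y axis) on every array against the stage code (x axis), with mutants as filled red symbols left of wild type as open blue symbols, shapes for replicates 1 to 3 and lines for the means of the 3 arrays. At Lac10 mutant replicate 3 is the highest mutant array for the synthesis, milk protein and adipocyte lists, and mutant replicate 1 is the highest mutant array for the luminal list.

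Before Lac10 no genotype difference passed the test. In virgins 0 of 10 passed, against 0.0263% of all genes, with differences of -0.76 for Olah to 0.80 for Me1, a median of 0.24 and 0.20 over all genes. At dp12 0 passed (0% of all genes), and all 10 differences were positive, from 0.04 for Me1 to 0.82 for Acaca, with a median of 0.34 and -0.003 over all genes. At dp18 0 passed (0% of all genes), with differences of 0.035 to 0.50. Averaged over the 4 stages 0 passed (0% of all genes), with differences of -0.62 to 0.0041. In these 4 comparisons 0 of the 10 had an unadjusted p under 0.05, where 15.8% of all genes did so in virgins, 1.21% at dp12, 0.656% at dp18 and 3.01% on average. The 95% intervals of single genes were wide, from -2.12 to 0.60 for Olah and from -0.61 to 2.12 for Elovl6 in virgins, from -0.24 to 1.87 for Acaca at dp12 and from -0.99 to 1.19 for Fasn at dp18. Differences within these limits were not excluded with 3 arrays a group.

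Whether the genotype difference depended on stage was tested directly. The estimated change between virgin and Lac10 was smaller in mutants for all 10 genes, with differences of -1.39 for Olah to -2.31 for Acaca and a median of -1.80 against -0.44 over all genes. None passed (0.0197% of all genes), with Srebf1 at -2.22 and an adjusted p of 0.0537, and 8 were negative at an unadjusted p under 0.05, against 23.6% of all genes. Without mutant Lac10 replicate 3 all 10 passed, where 18.9% of all genes did so in that direction. Without mutant Lac10 replicate 1 or wild-type Lac10 replicate 1 the count was 1, beside 4.08% and 1.25% of all genes. Without mutant dp18 replicate 1, mutant dp18 replicate 3 or wild-type dp18 replicate 1 it was 2, 1 and 4, beside 5.17%, 0.768% and 10.7% of all genes. The moderated F test of equal genotype differences over the 4 stages passed for 0 of 10, against 0.00656% of all genes, and 8 of 10 had an unadjusted p under 0.05, against 12.4% of all genes. The same F test of equal stages passed in mutants for 6 of 10 (6.08% of all genes), namely Olah, Thrsp, Srebf1, Fads1, Fasn and Acaca. In wild type it passed for 9 (4.74% of all genes), all but Elovl6 at an adjusted p of 0.0722.

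The 10 genes tended to be high and low on the same arrays. Over the 24 arrays, which share stages and genotypes, the 45 pairs had a median Pearson correlation of 0.84 (0.60 to 0.96). After the group means were taken off it was 0.74, and 0.58 without the mutant Lac10 group. The median correlation of all genes tested with the mean of the 10 was 0.13. Fasn and Fads1 were the closest pair (0.96), Acaca, Acly, Thrsp and Srebf1 were each closest to Fasn (0.95, 0.95, 0.96 and 0.90), Olah to Thrsp (0.95), Slc25a1 to Acly (0.92), and Me1 and Elovl6 to each other (0.88). Me1 followed the mean of the other 9 least, at 0.77, and Fasn most, at 0.97.

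The genes outside the 10 whose level followed their mean most closely over the 24 arrays were Pcx (0.97), Gldc (0.97), Gpd1 (0.96), Fam20c (0.95), St6gal1 (0.95), Cyb5b (0.95), Mocs1 (0.95) and Tbc1d13 (0.95). Pcx encodes pyruvate carboxylase, which refills the citrate cycle, Gldc the decarboxylase of the glycine cleavage system and Gpd1 the cytosolic glycerol-3-phosphate dehydrogenase, which makes the backbone of triglycerides and is also on the white adipocyte list. St6gal1 encodes a sialyltransferase, and Fam20c a kinase of secreted proteins, caseins among them. At Lac10 mutant minus wild-type differences of these 8 ran from -2.58 for Gldc to -0.85 for Cyb5b.

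The other genes of the pathway were followed in 4 lists, whose counts are to be read against the shares of all genes that rose, 3.02% in mutants and 5.91% in wild type from virgin to dp12 and 0.282% and 6.01% from virgin to Lac10, and against the 0.236% lower in mutants at Lac10. Of 24 tested genes that supply acetyl-CoA and NADPH, 4 rose from virgin to dp12 in mutants and 5 in wild type, and both counts ran from 0 to 9 with single arrays left out. In mutants they were Pcx by 2.28, the dicarboxylate carrier gene Slc25a10 by 1.36, the pentose phosphate gene Taldo1 by 1.35 and Idh2 by 1.22. In wild type they were Pcx by 2.56, the acetyl-CoA synthetase gene Acss1 by 1.71, Slc25a10 by 1.37, Idh2 by 1.13 and Mdh1 by 1.00. At Lac10 against virgins 0 of the 24 passed in mutants and 8 rose in wild type (5 to 9 without single arrays), led by Pcx by 3.80, Acss1 by 2.33, Slc25a10 by 2.13 and Acss2 by 2.07. Between genotypes at Lac10, 2 were lower in mutants, the citrate synthase gene Cs at -1.46 (adjusted p = 0.042) and Dlat, a subunit of pyruvate dehydrogenase, at -1.39, and the list's median was -1.02.

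Of 26 tested genes of malonyl-CoA turnover, elongation, desaturation and fatty acid activation, 1 rose from virgin to dp12 in mutants, the enoyl reductase gene Tecr by 0.90, and 0 passed in wild type, a share near that of all genes in mutants and below it in wild type, with 0 to 3 and 0 to 4 when single arrays were left out. At Lac10 against virgins 0 passed in mutants, and 5 rose in wild type (1 to 6 without single arrays), among them the mitochondrial carboxylase gene Acacb by 3.32, the delta-6 desaturase gene Fads2 by 2.27, Elovl5 by 1.78 and Scd3 by 1.77. Between genotypes at Lac10 0 of the 26 passed, with a median of -0.56. Of 10 genes of fatty acid uptake and binding, which serve fat taken up from the blood, 1 rose at Lac10 against virgins in mutants, Cd36 by 1.44, and 3 in wild type, the lipoprotein lipase gene Lpl by 2.00 and the transporter genes Slc27a4 by 1.33 and Slc27a3 by 1.17, with 0 to 4 in either genotype when single arrays were left out. Between genotypes at Lac10 0 of these 10 passed, with a median of -0.20, close to the -0.19 of all genes.

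Of 26 tested regulators of lipogenic transcription, 0 passed from virgin to dp12 in mutants and 2 rose in wild type, Prkaa2, a subunit of the AMP-activated kinase that inhibits acetyl-CoA carboxylase, by 1.76 and the coactivator gene Ppargc1b by 1.01, a share near that of all genes, with 0 to 8 when single arrays were left out. At Lac10 against virgins 0 passed in mutants and 7 rose in wild type (3 to 9 without single arrays), led by Prkaa2 by 3.02, Insig1, which holds SREBP in the endoplasmic reticulum and is itself an SREBP target, by 2.72, Stat5a, the effector of prolactin, by 1.59 and Ppargc1b by 1.35. Between genotypes at Lac10, 3 were lower in mutants, Prkaa2 at -2.16, Stat5a at -1.61 and Scap, the escort of SREBP to the Golgi, at -1.35 (adjusted p = 0.0455, 0.0455 and 0.042 in limma). Insig1 differed by -2.40 with an adjusted p of 0.0695. Prkaa2 and Insig1 restrain lipogenesis, while Scap and Stat5a favour it. Of these 26, 25 had a negative difference, with a median of -0.52. The calls of the 5 listed genes at Lac10 rested on single arrays as well, and with each array left out in turn 0 to 11 of the supply genes, 0 to 10 of the elongation list, 0 to 3 of the uptake genes and 0 to 9 of the regulators were lower in mutants. Over 36 alternative fits Cs and Dlat passed in 17 each, Scap in 16, Stat5a in 15 and Prkaa2 in 12, all with negative differences. All 5 calls were lost without mutant Lac10 replicate 2 and without wild-type Lac10 replicate 2 or 3, and also without any single virgin or mutant dp12 array, wild-type dp12 replicate 1 or wild-type dp18 replicate 3.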

How the data were processed

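Per the labels' protocols, Trizol was used to extract total RNA, from which biotinylated cRNA was made. The same labels also describe a pull-down of RNA with tagged PAB-1, which was not settled. The deposited values are log2 expression from RMA, per the submitters' processing notes, with its version not stated. RMA usually sets arrays to a common distribution, which can hide a shift that most genes share. The deposited arrays still differed, with medians of 5.31 to 5.62 and SDs of 1.65 to 1.99. Shared shifts remained: from virgin to dp12 in wild type, 66.4% of all genes tested had a positive difference, with a median of 0.28. Of 41345 probe sets, 23521 carry 1 symbol, 1814 several and 16010 none.

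From these values, limma (3.58.1 in R 4.3.3) was fitted to all 24 arrays with 1 mean per group, 16 residual and 4.35 prior degrees of freedom, and Benjamini-Hochberg adjustment over 15234 genes (threshold 0.05). The number of arrays limits the precision (median SE 0.30). The script was tested on simulated data, with normal noise of the same SD in every group for a gene. The wider spread of the mutant Lac10 arrays was not part of that test. No pairing was used, since mutant arrays are numbered in accession order. The 10 genes and 16 other lists were chosen with earlier results of these data known. The genes named are all 10, of each pathway list up to 4 that passed with the largest change, and the 8 genes closest to the mean of the 10. Mdh1, and Insig1 between genotypes, fall outside that rule and were chosen after their values were seen. Alternatives covered the filter, probe sets, scaling, variance trend, array weights, the arrays fitted, body weight, a replicate block and single arrays.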

Additional observations from a re-analysis of the deposited data

How the results depend on the processing

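Over the 36 to 38 alternative fits, the sign of every difference at Lac10 between genotypes, from virgin to dp12 in either genotype and from virgin to Lac10 in wild type was kept for all 10 genes, and counts past the threshold moved. Centring on the housekeeping list shifted the median of all genes at Lac10 between genotypes by 0.28, where 0 members passed, with a median of -1.41 against 0.09 over all genes. It shifted the wild-type step from virgin to dp12 by -0.40, where 1 passed (median 1.20, against -0.12 over all genes, of which 1.37% rose), the mutant one by -0.29 and the genotype difference in change from virgin to Lac10 by 0.42. Array median centring left 1 in mutants at Lac10 against virgins. Array weights called many genes overall: 10 members and, in the members' direction, 15.3% of all genes at Lac10 between genotypes, 1 and 0.4% averaged over stages, 10 and 48.2% in wild type from virgin to dp12, 1 and 6.66% from dp12 to dp18, 10 and 10% from dp18 to Lac10, and 4 and 1.07%, and 10 and 32.2%, for the genotype difference in change from dp18 and from virgin to Lac10. Fits to the compared groups alone gave 0 at Lac10 between genotypes, 0 in mutants from virgin to Lac10 and 10 in wild type from virgin to dp12 (31% of all genes). Body weight as a covariate (22 arrays) gave 6, 4, 1 and 5 for genotype at Lac10, the mutant changes from virgin to dp12 and to Lac10, and the genotype difference in change from virgin to Lac10, beside 7.51%, 3.2%, 0.158% and 22.7% of all genes in the same direction. Leaving out the 3 arrays of low correlation gave 0 at Lac10 between genotypes and 1 for the genotype difference in change from virgin (9% of all genes). Without wild-type Lac10 replicate 1 and mutant dp18 replicate 2, a choice made after seeing the data, the counts were 5 at Lac10 between genotypes, 1 in wild type from dp18 to Lac10 and 1 for that difference (1.71%, 0.873% and 1% of all genes). With each array left out in turn, counts ran from 0 to 10 for genotype at Lac10, 3 to 7 and 0 to 8 from virgin to dp12 in mutants and wild type, 1 to 3 and 7 to 10 from virgin to Lac10, 0 to 1 in wild type from dp18 to Lac10, and 0 to 10 and 0 to 6 for the genotype difference in change from virgin and from dp18. The cause was not tested. With the wild-type numbers as a replicate block, on wild-type arrays alone, 8 passed from virgin to dp12 and 10 at Lac10. As many passed without the block. Same-numbered arrays correlated by -0.39 to 0.31 in 18 pairs, 4 above 0.1. Arrays of unlike number were not compared, so this cannot decide whether the numbers mark a pairing. Another probe set per gene could not be tried, since each gene has 1.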
